A study of Homo sapiens with 4 samples.

Results

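The members described here are the short peaks of N6-methyladenosine (m6A) that lie in the 3' untranslated region (3' UTR) of mRNAs in OMM2.3, an established uveal melanoma line. They were chosen by measured length and annotation: every peak that the authors annotated as 3' UTR and whose exonic length was below 600 bp, counted once per chromosome, start, end and strand. The peak list of the control cells held 7671 of them among 22067 peaks, in 5420 genes. The list of the treated cells held 6769 among 19929 peaks, in 5000 genes. They made up 82.5% and 79.3% of the 3' UTR peaks of their lists, and the remaining 3' UTR peaks, of 600 bp or more, are called broad.

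Wild-type OMM2.3 cells received DMSO (NC, the control) or meclofenamic acid (MA) for 24 h. Each condition had 1 input library, which gave transcript levels in FPKM (reads per kilobase of gene, scaled to library size), and 1 library of RNA fragments bound by an m6A antibody (RIP), which gave a peak list. There were 4 libraries in all and no replicates, so no p-value, SD or standard error across samples could be given, and every difference describes these libraries. Reads recovered from the FPKM values put the MA input at 1.12 times the depth of the NC input, and the depth of the RIP libraries was not given in the sources used here. All 7 melanocytic markers (PMEL, MLANA, TYR, TYRP1, DCT, MITF and SOX10) reached 1 FPKM in at least 1 input, whereas of the fibroblast, immune, endothelial and epithelial markers only LUM and CD68 did so. In bulk RNA, fewer cells of a type and less RNA per cell cannot be told apart.

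The m6A mark is set on nascent mRNA by a writer complex around METTL3 and METTL14, and FTO and ALKBH5 remove it. Proteins with a YTH domain bind the mark, and YTHDF proteins recruit the CCR4-NOT deadenylase to marked mRNAs. In mammalian cells the mark is densest near the stop codon and along the 3' UTR, the part of an mRNA that also carries the sites of microRNAs and of proteins that set its stability. Meclofenamic acid, an anti-inflammatory inhibitor of cyclooxygenases, is also known as an inhibitor of FTO.

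The smallest windows were the most common among the narrow peaks. In NC, 21.2% of them were 149 to 151 bp long, 16.1% lay within 1 bp of 200 bp and 11.8% within 1 bp of 250 bp. The corresponding shares in MA were 20.003%, 14.8% and 10.9%. Within 1 bp, 79.6% of the NC and 78.1% of the MA peaks had a length that was a multiple of 50 bp, so lengths moved in steps and not continuously. The median length was 250.0 bp in NC (quartiles 199 and 397) and 293 bp in MA (200.0 and 399). The shortest peak had 141 bp in NC and 139 bp in MA.

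**Figure D1:**
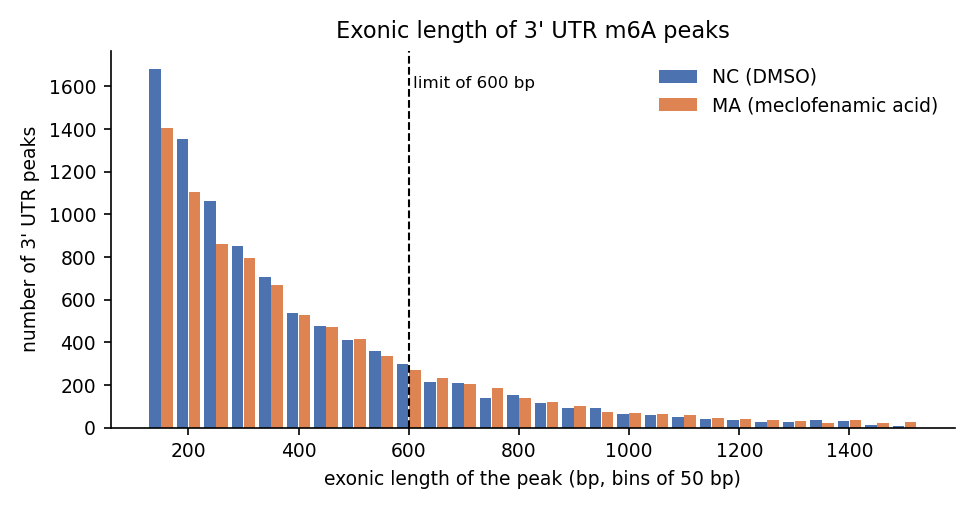
Number of 3' UTR peaks (vertical axis) by exonic length in bins of 50 bp (horizontal axis, in bp) for NC and MA; peaks of 1525 bp or more are not drawn, and the dashed line is the 600 bp limit. The counts fall from 1683 (NC) and 1405 (MA) in the shortest bin without a break at the limit.

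The limit at 600 bp fell within this slope. Just inside it in NC were the peaks of SIRT5, a mitochondrial deacylase (599 bp, fold 17.0), ZNF436 (599 bp, fold 12.2) and ERI1, an exoribonuclease (599 bp, fold 11.5). Just outside were those of ATP10B (600 bp, fold 13.8), BRI3BP (600 bp, fold 10.0) and FAM120A (600 bp, fold 10.0). In MA the members next to the limit included those of TSC22D2 (599 bp, fold 7.75) and MTERF1 (599 bp, fold 6.22), and the first broad peaks were those of SRGAP2C (600 bp, fold 27.0), ZFP41 (600 bp, fold 10.3) and RAD23B (600 bp, fold 6.33). The fold is the authors' fold enrichment of RIP over input, and it is used here only to describe or rank peaks of its own list. Where NC and MA folds of a gene are given together, each describes its own list, and their difference is not read as a change.

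Within its own list, a narrow peak was less enriched than a broad one. The median fold of narrow peaks was 3.44 in NC (quartiles 2.50 and 5.00), against 5.25 for broad 3' UTR peaks and 4.11 for peaks over the stop codon. In MA the medians were 3.00 (2.25 and 4.00), 4.25 and 3.50. Stop codon peaks of any length were included, with a median length of 399 bp in NC and 400 bp in MA, against 250 and 293 bp for narrow peaks. At equal length the order in NC varied. Below 175 bp the median folds were 2.90 for narrow and 2.54 for stop codon peaks, and at 275 to below 325 bp 3.50 and 4.00. In MA they were 2.50 each in the first group and 3.00 and 3.105 in the second. Exon and 5' UTR peaks of the same lists had medians of 3.50 and 3.33 in NC and of 3.00 each in MA, close to those of the narrow 3' UTR peaks. These comparisons were not tested, since peaks of 1 library are not replicates. Most narrow peaks lay within a single exon, 84.0% in NC and 81.0% in MA, as against 60.8% and 53.9% of the broad ones. The authors' false discovery rate was above 0.05 for 62 NC and 40 MA members.

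By midpoint, nearly all narrow peaks lay downstream of a start codon peak where the gene had one, but many lay upstream of its stop codon peak. Of 774 NC members within 1 exon whose gene also had a start codon peak, 770 lay downstream of it, and of 441 in MA, 439 did. Of 465 NC members whose gene had a stop codon peak, 304 (65.4%, exact 95% interval 60.9 to 69.7%) lay downstream of that peak, and of 325 in MA, 198 (60.9%, 55.4 to 66.3%). The others were called 3' UTR although a peak further along the same gene was called stop codon, and the transcript behind each call was not analysed here. Intervals of shares are Clopper-Pearson intervals, and they cover counting error only. Among members within 1 exon in genes with further peaks, 60.4% in NC and 62.4% in MA were the most downstream peak of their gene.

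Most genes carried a single member. In NC, 3896 genes (71.9%) had 1 narrow peak, 1036 had 2 and 488 had 3 or more, with up to 10. In MA these numbers were 3762 (75.2%), 890 and 348, with up to 9. Neighbouring members of a gene within 1 exon were a median of 772 bp apart from centre to centre in NC (quartiles 472 and 1711) and 748 bp in MA (463 and 1665). Some members shared their statistics with a neighbour. In NC, 22.7% of the members had a p-value and a false discovery rate identical to those of another 3' UTR peak of their gene, and in MA 23.4%. Between neighbours of this kind the gap had a median of 198 bp in NC and 149 bp in MA, and 35.2% and 40.6% of these gaps were 95 to 105 bp long. The gap between neighbours with different p-values had a median of 894 and 997 bp. Joined by gene and p-value, the members came to 6801 in NC and 6001 in MA.

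CFLAR, which encodes an inhibitor of caspase-8 activation, had the most members in both lists, 10 in NC and 9 in MA. Its input was at 2.92 FPKM in NC and 2.68 in MA. Its NC members lay on chromosome 2 between 201136347 and 201169987 on the plus strand (GRCh38.p13), and their highest fold was 10.0, at 201168637 to 201169087. The MA members lay between 201136297 and 201169487, with the highest fold, 9, at 201168687 to 201168987 and again at 201169237 to 201169487. Of the NC members, 5 had no partner in MA, that is, no MA peak of any kind shared at least 1 bp with them on their strand. Of the MA members, 1 had none in NC.

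The other genes richest in members differed more between the lists. PRMT2, of the protein arginine methyltransferase family, had 8 narrow peaks in NC and 2 in MA, at inputs of 11.7 and 8.42 FPKM. Of the 8, 4 had no partner, and among these the peak at 46654514 to 46654713 on chromosome 21 had a false discovery rate of 0.126. PEX26, a peroxisome assembly factor, had 8 in NC and 2 in MA at inputs of 7.87 and 7.88 FPKM, and 6 of the NC peaks had no partner. ZNF24, a zinc finger transcription factor, had 7 and 3, although its input was higher in MA, 41.0 FPKM against 18.4. LMLN, a metallopeptidase gene, had 7 and 3 at 1.01 FPKM in NC and 2.74 in MA. On the other side, GPATCH2L had 4 narrow peaks in NC and 8 in MA (3.20 and 5.75 FPKM), GIT2, a GTPase-activating protein of ARF, 2 and 7 (8.87 and 7.98), and the ubiquitin ligase gene TRIM56 6 and 8 (10.6 and 11.6). MARVELD1 had 4 and 6 while its input was at 39.7 FPKM in NC and 15.5 in MA. A larger number of members thus did not always go with a higher input.

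**Figure D2:**
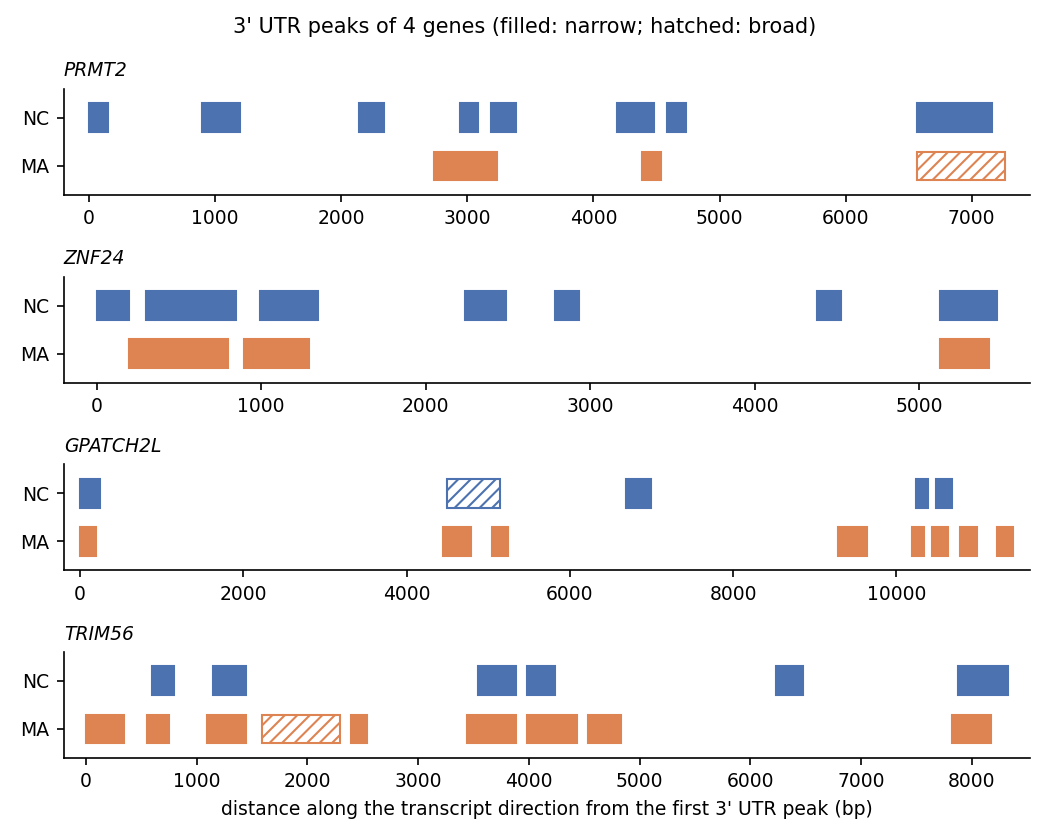
3' UTR peaks of PRMT2, ZNF24, GPATCH2L and TRIM56 in NC and MA, drawn to scale along the transcript direction from the first 3' UTR peak of the gene (horizontal axis, bp); filled boxes are narrow and hatched boxes broad peaks. PRMT2 goes from 8 narrow peaks in NC to 2 in MA beside a broad one, and GPATCH2L from 4 beside a broad one to 8.

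Several of the largest gains were exchanges between broad and narrow peaks at the same place. ZBTB40, a zinc finger gene, had 3 broad and 1 narrow peak in NC and 6 narrow peaks in MA (12.8 and 11.7 FPKM), and all 6 overlapped an NC 3' UTR peak. EXOC7, of the exocyst complex, had 2 broad peaks in NC and 4 narrow ones in MA (37.9 and 28.2 FPKM), each inside a broad one. SIN3B, a transcriptional corepressor, had 1 broad peak in NC and 4 narrow ones in MA (19.2 and 20.2 FPKM), 1 of them without an NC partner. SMURF1, a ubiquitin ligase gene, went from 1 narrow beside 1 broad peak to 5 narrow ones (12.8 and 9.82 FPKM), 2 of them without a partner. Among the losses, GRK3, a kinase of G protein-coupled receptors, had 4 narrow and 1 broad peak in NC and a single broad one in MA (12.98 and 8.26 FPKM), and 3 of the 4 had no MA partner. NDST1, an enzyme of heparan sulfate synthesis, went from 5 narrow peaks to 1, beside a broad one in each list (18.0 and 8.42 FPKM), and 4 of the 5 had no partner. PRMT2, PEX26 and ZNF24 were the other losses.

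Over all members, 5392 of the 7671 NC peaks (70.3%, 69.3 to 71.3%) had a partner in MA, and 5266 of the 6769 MA peaks (77.8%, 76.8 to 78.8%) had one in NC. Over peaks of every annotation these shares were 73.8% and 79.7%. The partner was itself a narrow 3' UTR peak for 56.5% of the NC members and 63.8% of the MA members. It was a broad 3' UTR peak for 9.53% and 9.01%. A stop codon peak was the partner of 1.38% and 2.04%, and an exon peak of 1.86% and 2.13%. Of the 1766 broad MA peaks, 134 (7.59%) overlapped 2 or more narrow NC peaks. Of the 1625 broad NC peaks, 127 (7.82%) overlapped 2 or more narrow MA peaks. These shares were close in both directions, but an overlap of 1 bp at an edge was enough, so they do not count peaks joined or split.

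Where a narrow peak had exactly 1 narrow partner, both peaks lay close together. There were 3859 such pairs, 2846 of them within 1 exon. In these 2846 the centres were a median of 25 bp apart, the upper quartile was 74.5 bp, and the overlap covered a median of 71.4% of the joint span. Start and end were both identical in 372 pairs (13.1%), the start in 33.7% and the end in 33.5%. The MA peak was longer by more than 2 bp in 1051 pairs and shorter in 1121, and in 674 the lengths were equal within 2 bp, so the pairs did not lean clearly to longer peaks in either condition.

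The share of members with a partner went up with their length. Among NC peaks below 175 bp, 40.5% (38.2 to 42.9%) had a partner, against 70.99% at 225 to 274 bp and 98.6% (96.0 to 99.7%) at 575 bp or more. In MA these shares were 52.7% (50.1 to 55.4%), 78.3% and 98.9% (96.1 to 99.9%). A longer span has more room to overlap, and the median fold also went up with length, from 2.90 to 4.50 in NC and from 2.50 to 3.79 in MA, and the part of either was not tested. The unpartnered members had a median length of 199 bp in NC and 200.0 bp in MA, those with a partner 300.0 bp in both lists.

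**Figure D3:**
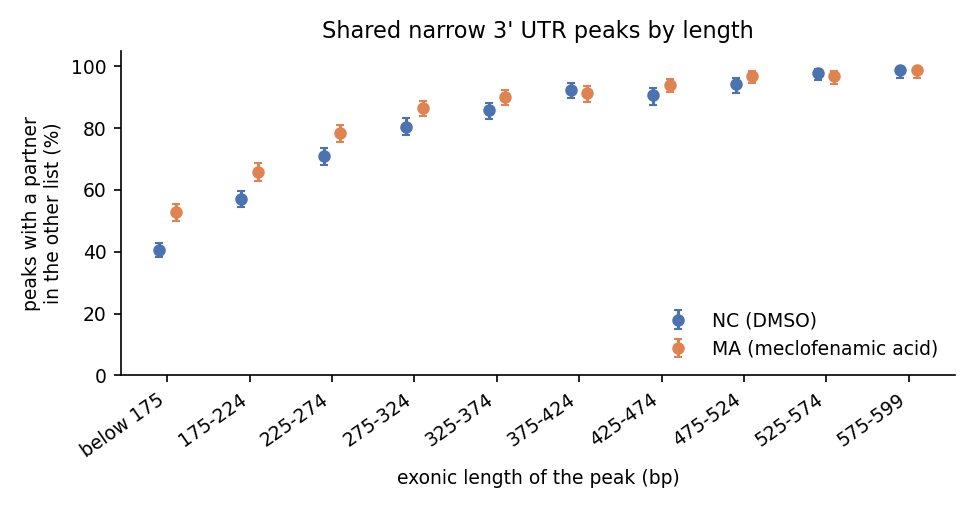
Share of narrow 3' UTR peaks with a partner in the other list (vertical axis, percent) by exonic length (horizontal axis, bp) for NC and MA; points are shares and bars exact 95% binomial intervals. The share goes from 40.5% to 98.6% in NC and from 52.7% to 98.9% in MA.

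The share of narrow 3' UTR peaks with a partner was also set beside that of other short peaks of equal length in the same list. The comparison used peaks within 1 exon and below 600 bp, with the other kinds weighted to the lengths of the narrow 3' UTR peaks. In NC, 67.1% of the narrow 3' UTR peaks had a partner, against 75.8% of the exon peaks, 63.2% of the 5' UTR peaks, 63.1% of the stop codon peaks and 58.0% of the start codon peaks. In MA the shares were 75.7%, 78.3%, 74.6%, 74.4% and 80.4%. They lay between the other kinds in both lists, and no difference was tested.

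Sharing also moved with the fold and with the level of the gene. Of NC members at a fold below 2, 51.8% had a partner, against 74.5% at 3 to below 5 and 82.5% at 10 or more. In MA these shares were 66.1%, 82.5% and 79.0%. In genes whose lower input value was below 1 FPKM, 52.4% of the NC and 58.5% of the MA members had a partner, and at 20 to below 50 FPKM 79.7% and 85.9% did. At 50 FPKM or more the shares were 74.7% (69.9 to 79.0%) in NC and 88.2% in MA, so the NC share was not highest in the top group.

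The share with a partner followed the difference of the gene between the inputs, in opposite directions for the lists. The input difference is log2((MA FPKM + 1)/(NC FPKM + 1)), given for the genes tested, which reached 1 FPKM in an input or in both, and it understates the difference of low genes. Of NC members in genes 2-fold or more lower in MA, 63.5% (56.7 to 69.9%, 139 of 219) had a MA partner, and in genes 2-fold or more higher in MA 82.7% (79.5 to 85.5%, 520 of 629). Of MA members, 85.2% (79.3 to 89.9%, 161 of 189) had an NC partner in genes 2-fold or more lower in MA, and 68.5% (64.5 to 72.2%, 395 of 577) in genes 2-fold or more higher. The lists were thus nearly level, at 74.5% and 75.0%, in genes higher in MA by less than 2-fold. Members shorter than 225 bp showed the same order, from 38.6% to 64.6% in NC and from 70.8% to 38.2% in MA. Members of genes whose lower input value was 5 to below 20 FPKM went from 68.3% to 80.5% in NC and from 86.0% to 81.9% in MA, and in both lists the intervals of these extreme groups overlapped. A peak call needs reads over the region in its own libraries, and how far read depth sets these shares was not tested.

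**Figure D4:**
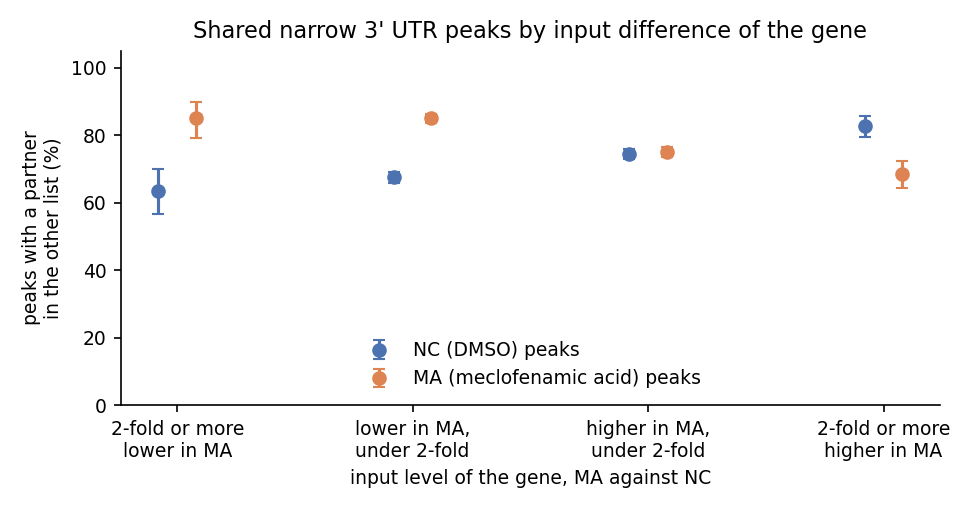
Share of narrow 3' UTR peaks with a partner in the other list (vertical axis, percent) in 4 groups of genes by input level in MA against NC (horizontal axis); points are shares and bars exact 95% binomial intervals. NC peaks go from 63.5% to 82.7% and MA peaks from 85.2% to 68.5% across the groups.

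By gene, 3864 had a member in both lists, which was 71.3% of the NC and 77.3% of the MA genes. A further 1556 had one in NC only and 1136 in MA only. Of the NC only genes, 462 had a broad 3' UTR peak in MA, 620 only peaks of another kind and 474 (30.5%) no MA peak at all. Of the MA only genes, 341 had a broad 3' UTR peak in NC, 540 only other peaks and 255 (22.4%) no NC peak. Most genes without a member in 1 list thus still had a peak there. Peaks of some kind were common over all genes, since 1341 of the 10564 genes at 1 FPKM or more had none in either list. This is therefore not read as a trait of these genes.

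The input differences of the genes with members are set beside those of all genes. In the gene table, 10.3% of the 10564 tested genes were 2-fold higher in MA and 2.98% were 2-fold lower, with a median input difference of 0.11. Of the 3685 tested genes with a member in both lists, 324 (8.79%) were higher and 106 (2.88%) lower by 2-fold, with a median of 0.10. Of 1371 genes with a member in NC only, 136 (9.92%) were higher and 42 (3.06%) lower (median 0.10). Of 1036 with a member in MA only, 132 (12.7%, 10.8 to 14.9%) were higher and 33 (3.19%) lower (median 0.21). After rescaling to a median of 0 over all genes, the medians were -0.0081, -0.012 and 0.094. The MA only values were not particular to genes with members. Of 3131 tested genes with only other peaks, 13.6% were 2-fold higher in MA and 2.49% lower (median 0.21). Of 1341 without a peak in either list, 5.07% were higher and 4.18% lower (median -0.09). The MA only genes were chosen by a peak call in MA, and what this adds to their median was not tested.

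Among genes at 1 FPKM or more, members were less frequent at high levels. Of genes with a mean input of 5 to below 20 FPKM, 53.2% had a member in NC and 50.5% in MA. At 20 to below 100 FPKM the shares were 40.9% and 37.1%, and at 100 FPKM or more 25.4% (21.9 to 29.1%) and 20.6% (17.4 to 24.1%). Over all genes at 1 FPKM or more, 47.9% had a member in NC and 44.7% in MA.

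Gene lists differed widely in how many of their genes had a member. The share of each list is to be read beside 47.9% in NC and 44.7% in MA over all genes. Counts at 2-fold are to be read beside 10.3% higher and 2.98% lower in MA over all tested genes. Many lists lay near these shares, and none was tested. Of 72 cytosolic ribosomal protein genes, all at 1 FPKM or more, 17 had a member in NC and 10 in MA, and the 10 were also among the 17. This is 23.6% and 13.9%, below the shares over all genes, but 70 of the 72 had a mean input of 100 FPKM or more, where the shares were 25.4% and 20.6%. RPL13A, of the large subunit, was at 2385 FPKM in NC and 1803 in MA, and its member had a fold of 2.27 and 1.98. RPL19 (1495 and 1215 FPKM) had folds of 2.01 and 1.89, RPL36 (1245 and 1131 FPKM) 2.04 and 1.63. RPL29 had a member in NC only (1464 and 1210 FPKM, fold 1.68). The median input difference of the list was -0.06.

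**Figure D5:**
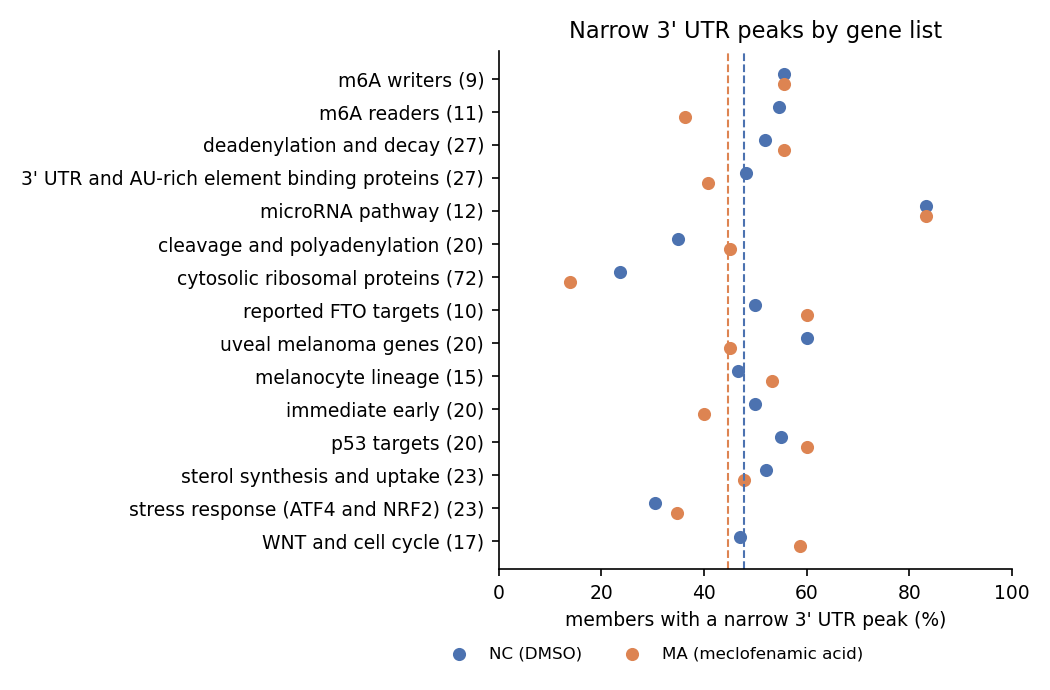
Share of the genes of each list with a narrow 3' UTR peak (horizontal axis, percent of members at 1 FPKM or more, whose number stands in brackets) in NC and MA; dashed lines are the shares over all genes, 47.9% in NC and 44.7% in MA. Ribosomal protein genes lie at 23.6% and 13.9% and microRNA pathway genes at 83.3% in both lists.

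Among the lists of 9 or more tested genes, the microRNA pathway had the highest share, with 10 of 12 in each list and 9 in both. All its tested genes but XPO5 had a mean input below 20 FPKM. Over all genes, the shares were 51.8% in NC and 49.0% in MA at 1 to below 5 FPKM. At 5 to below 20 FPKM they were 53.2% and 50.5%. It is a small list, named because it was the highest of those compared, and its share was not tested. TNRC6A, the scaffold that joins Argonaute proteins to deadenylases, was at 6.85 FPKM in NC and 8.81 in MA. It had 2 members in each list, the stronger on chromosome 16 at 24825574 to 24825923 in NC (fold 9.75) and at 24825624 to 24825923 in MA (fold 10.0). DROSHA, the nuclear RNase of microRNA processing, had 1 member in each list (9.73 and 10.2 FPKM, folds 3.86 and 2.75), as did TARBP2, a partner of Dicer (18.6 and 11.1 FPKM, folds 2.60 and 3.75). The Microprocessor subunit gene DGCR8 had a narrow and a broad peak in NC and only a broad one in MA (17.0 and 13.9 FPKM). The list held no gene 2-fold higher or lower in the inputs, and its median difference was 0.09.

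Of 27 genes of deadenylation and mRNA decay, 14 had a member in NC (51.9%), 15 in MA (55.6%) and 12 in both. BTG1, which binds the deadenylase CAF1, was at 12.5 FPKM in NC and 38.7 in MA (log2 ratio 1.62, 95% counting interval 1.55 to 1.69). Its member on chromosome 12 at 92142716 to 92142866 (fold 3.00) was in NC only. PARN, a poly(A)-specific ribonuclease, also had a member in NC only (39.0 and 19.3 FPKM, fold 2.33), and TOB2 in MA only (22.3 and 12.97 FPKM, fold 2.03). LSM1, of the decay complex that binds mRNA 3' ends, had 1 in each list (19.2 and 20.7 FPKM, folds 3.38 and 2.56). In this list 3 of the 27 genes were higher in MA by 2-fold and none lower, with a median of 0.41. Over all tested genes 10.3% were higher and 2.98% lower.

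Proteins that bind 3' UTRs and AU-rich elements had members in 13 of 27 genes in NC (48.1%), 11 in MA (40.7%) and 10 in both. ZFP36L1, which promotes decay of AU-rich mRNAs, was at 94.8 FPKM in NC and 196 in MA. It had 4 narrow peaks in NC on chromosome 14 between 68787854 and 68789800, and in MA 2 narrow peaks and a broad one over the same stretch, so none of the 4 was without a partner. KHSRP, another decay factor, had 1 member in NC and 2 in MA (195 and 118 FPKM), and its shared member had the same start and end in both lists, chromosome 19, 6414494 to 6414991 (fold 2.54 in NC and 2.09 in MA). PABPC1, the cytoplasmic poly(A)-binding protein, had 1 in each list (733 and 732 FPKM, folds 1.83 and 1.70). STAU1 had a member in NC (fold 4.06) and a broad peak in MA at 48.1 and 50.4 FPKM.

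Of 20 genes of cleavage and polyadenylation, 7 had a member in NC (35%), 9 in MA (45%) and 6 in both. PAPOLA, the poly(A) polymerase, was at 31.7 FPKM in NC and 69.1 in MA, and its narrow NC peak (fold 3.02) had a broad peak as its counterpart in MA. CPSF7, of cleavage factor I, had 3 members in NC and 2 in MA (29.3 and 30.6 FPKM), and CPSF4 had 1 in each list (22.8 and 24.6 FPKM, folds 1.71 and 1.83). CPSF3, the endonuclease that cuts the pre-mRNA, had 1 in MA only (23.9 and 34.98 FPKM, fold 1.99).

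Among the m6A erasers, the member of FTO was in NC only. FTO was at 2.15 FPKM in NC and 2.95 in MA (log2 ratio 0.46, 0.30 to 0.62). Its NC peak spanned an intron, from 53888847 to 53937305 on chromosome 16, with 350 bp of exon and a fold of 2.62. An MA peak that the authors called exon overlapped that span. The transcript behind the 3' UTR call was not analysed here, so a loss of a 3' UTR peak of FTO in MA cannot be read from this. ALKBH5 had 3 members in NC and 2 in MA at 23.4 and 22.9 FPKM. On chromosome 17, its NC peaks lay at 18208227 to 18208572 (fold 3.38), 18209263 to 18209411 (fold 5.71) and 18209609 to 18209855 (fold 2.52). The MA peaks lay at 18208326 to 18208523 (fold 1.74) and 18209609 to 18209806 (fold 2.11), so the middle one was without a partner.

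Of the 9 writer genes, 5 had a member in NC, 5 in MA (55.6% each) and 4 in both. METTL14, the RNA-binding partner of METTL3, was at 2.17 FPKM in NC and 5.50 in MA. In NC it had 3 narrow peaks and a broad one on chromosome 4 between 118700590 and 118714784, and in MA a single broad peak of 1640 bp from 118700590 to 118711206. The peak furthest downstream (118714635 to 118714784, fold 5.00) had no MA partner, and its false discovery rate was 0.0631. RBM15B, which guides the complex to RNA, showed the opposite, with a broad peak of 2441 bp in NC and 2 narrow peaks within it in MA (18.6 and 12.4 FPKM). WTAP had 2 members in each list (7.25 and 13.9 FPKM, highest folds 5.53 and 4.73), VIRMA 2 in NC and 1 in MA (8.54 and 26.0 FPKM), and ZC3H13 (17.1 and 19.0 FPKM) and METTL16 (19.6 and 15.3 FPKM) 1 in each. The ZC3H13 peaks were identical in position, on chromosome 13 from 45955913 to 45956113 (fold 2.42 in NC and 2.11 in MA). METTL3, RBM15 and CBLL1 had no 3' UTR peak in either list.

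Of the 11 tested reader genes, 6 had a member in NC (54.5%), 4 in MA (36.4%) and 4 in both. YTHDC2, a helicase with a YTH domain, was at 2.97 FPKM in NC and 9.05 in MA. It had 3 narrow peaks in NC on chromosome 5 between 113593350 and 113594836 and a broad one of 848 bp from 113592176 to 113594238 in MA. Of the 3, the last one (fold 1.75) had no partner. HNRNPC had a member in NC only (115 and 116 FPKM, fold 1.69). YTHDF1 (42.8 and 28.4 FPKM, folds 2.45 and 2.82) and YTHDC1 (6.36 and 14.6 FPKM, folds 3.25 and 3.17) had 1 in each list. IGF2BP2 had 2 members in NC and 3 in MA (27.3 and 24.6 FPKM), and IGF2BP3 1 and 2 (11.2 and 20.6 FPKM). YTHDF2 and HNRNPA2B1 had a broad 3' UTR peak in both lists and no member, and YTHDF3, FMR1 and PRRC2A had no 3' UTR peak. IGF2BP1 was under 1 FPKM in both inputs.

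In the uveal melanoma list, 12 of 20 genes had a member in NC (60%) and 9 in MA (45%). The 9 were among the 12. BAP1, the tumour suppressor deubiquitinase, had 1 in each list at 46.4 and 35.95 FPKM, but at different places on chromosome 3, at 52402202 to 52402402 in NC (fold 2.20) and 52401054 to 52401353 in MA (fold 1.63). CTNNB1 (428 and 293 FPKM) had a shared member, at 41239747 to 41239897 on chromosome 3 in NC (fold 2.62) and 41239697 to 41239947 in MA (fold 2.08), and a second one in MA only. MET (74.7 and 61.5 FPKM, folds 2.28 and 2.79) and FXR1 (34.9 and 72.7 FPKM, folds 1.85 and 1.58) had 1 in each.

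Melanocyte lineage genes had members in 7 of 15 genes in NC (46.7%) and 8 in MA (53.3%), with all 7 in common. None of the list was 2-fold higher and 7 were 2-fold lower in the MA input (median -0.83), and these were mostly other genes. Of those 2-fold lower, DCT, EDNRB and RAB38 had members in both lists, and PMEL, MLANA, TYR and GPR143 had none in either. MITF, the lineage transcription factor, was at 55.9 FPKM in NC and 34.8 in MA. Its members, 150 bp each, lay on chromosome 3 at 69967983 to 69968132 in NC (fold 1.66) and 69967933 to 69968082 in MA (fold 1.81). SOX10 (488 and 274 FPKM) had a member on chromosome 22 at 37973108 to 37973456 in NC (fold 1.72, false discovery rate 0.0708), and in MA a shorter one within it, at 37973157 to 37973306 (fold 1.51). DCT, an enzyme of melanin synthesis (191 and 65.2 FPKM, folds 2.29 and 2.12), and the endothelin receptor gene EDNRB (85.0 and 32.9 FPKM, folds 1.88 and 2.87) also kept theirs. In these genes the members remained called while the input was lower.

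Many stress and immediate early genes were higher in the MA input, and their members differed from gene to gene. Of 20 immediate early genes, 10 were 2-fold higher in MA and none lower. Members were found in 10 in NC (50%), 8 in MA (40%) and 6 in both. JUN (11.6 and 89.8 FPKM, log2 ratio 2.95, 2.81 to 3.09) had 1 in each list on chromosome 1, at 58781728 to 58782320 in NC (fold 6.20) and 58781778 to 58782271 in MA (fold 3.58). CCN2, a matricellular YAP target (16.4 and 117 FPKM), had members with the same start and different ends, chromosome 6, 131949021 to 131949369 in NC and to 131949469 in MA. ATF3 (18.5 and 74.8 FPKM) had 1 in each and a further broad peak in MA only, and IER3 (264 and 245 FPKM) a broad peak in NC and a member in MA. DDIT3, the stress transcription factor CHOP, was at 75.1 FPKM in NC and 435 in MA, and its member of 492 bp had the same ends in both lists (chromosome 12, 57516686 to 57517177, fold 3.56 in NC and 2.77 in MA). TRIB3 (129 and 269 FPKM) and DDIT4 (77.2 and 240.3 FPKM) had a broad peak in NC and a member in MA, whereas TXNRD1, thioredoxin reductase (69.0 and 140 FPKM), had a member in NC only (fold 1.73). In the ATF4 and NRF2 list, 8 of 23 genes were 2-fold higher and none lower. There, 7 had a member in NC (30.4%), 8 in MA (34.8%) and 3 in both.

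Of 20 p53 targets, 11 had a member in NC (55%), 12 in MA (60%) and 8 in both. The member of GADD45A was 435 bp long with the same ends in both lists (chromosome 1, 67687707 to 67688141, fold 4.36 in NC and 3.50 in MA), at inputs of 47.5 and 210.2 FPKM. CCNG1 had 2 members in NC and no peak in MA at 53.6 and 110 FPKM. DDB2 (93.02 and 76.7 FPKM, folds 2.05 and 2.30) and SESN2 (57.4 and 79.9 FPKM, folds 2.97 and 3.10) had 1 in each list.

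Of 23 genes of sterol synthesis and uptake, 12 had a member in NC (52.2%), 11 in MA (47.8%) and 10 in both. By input level, 11 of the 23 were 2-fold higher in MA. HMGCS1, which makes HMG-CoA, was at 9.51 FPKM in NC and 141.3 in MA, and its member was in MA only (fold 1.90). MSMO1 (12.2 and 168 FPKM, folds 3.85 and 3.10), DHCR7 (38.3 and 131 FPKM, folds 2.09 and 1.88) and FDFT1 (75.3 and 126 FPKM, folds 1.59 and 1.74) had 1 in each list.

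Among the reported FTO targets, 5 of 10 tested genes had a member in NC (50%) and 6 in MA (60%). The 5 were among the 6. The sixth was CCND1, cyclin D1, at 94.1 FPKM in NC and 40.3 in MA, with a broad peak of 899 bp in NC and a member of 550 bp in MA (folds 2.32 and 2.05). ASB2 (13.9 and 3.96 FPKM, folds 3.94 and 3.20) had 1 in each list, and USP7 had 2 in NC and 1 in MA (23.9 and 24.0 FPKM). In the WNT and cell cycle list 8 of 17 had a member in NC (47.1%) and 10 in MA (58.8%). E2F1 (54.6 and 45.4 FPKM, folds 2.86 and 2.43) and AXIN1 (14.5 and 13.3 FPKM, folds 2.55 and 2.43) had 1 in each list.

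In 3 of the 10 genes with the highest input differences among genes that had a member in either list, a broad MA peak covered the members of NC. ARRDC3, an alpha-arrestin gene, had 0.558 FPKM in NC and 41.5 in MA (log2 ratio 6.22, 5.94 to 6.52). It had 2 narrow peaks in NC on chromosome 5, at 91370526 to 91370676 (fold 5.00) and 91371075 to 91371374 (fold 7.00), and in MA a broad peak of 999 bp over both (fold 3.83). KLF4 (0.898 and 18.8 FPKM) had 1 narrow peak in NC inside a broad one of MA, and ZNF441 (0.461 and 11.4 FPKM) 2 narrow peaks in NC and 2 broad ones in MA, 1 of which covered both. RHOB (17.3 and 137 FPKM) and SLC30A1 (1.22 and 13.5 FPKM) had a member in MA only, and KLF2 (3.44 and 39.6 FPKM) 1 in each list. At the other end, TSPAN10 (10.8 and 0.993 FPKM) and ST6GALNAC1 (8.51 and 0.644 FPKM) had a member in NC only and no 3' UTR peak in MA. HOXD1 (37.1 and 4.25 FPKM) and IL17D (5.32 and 0.449 FPKM) had members in both, and MBP (56.1 and 8.40 FPKM), SPATS1 (19.3 and 2.56 FPKM) and MLPH (88.9 and 20.4 FPKM) in MA only, against the direction of the input. An NC stop codon peak overlapped the MLPH member and 1 of the 2 MBP members, and SPATS1 had no NC peak. NANOS1, a translational repressor gene (35.8 and 4.13 FPKM), had a broad and a narrow peak in NC, and its single MA member, at 119030656 to 119031201 on chromosome 10, lay inside the broad one. GYG2 went from 2 members to 1 (29.1 and 4.10 FPKM), and VWA1 likewise (58.1 and 11.6 FPKM).

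The shared NC members with the highest folds were in genes at 5.21 to 17.8 FPKM in NC, ranked among genes whose inputs both reached 5 FPKM. The ranking used the NC fold only, which by itself favours a lower fold of the MA partner. They were in TEF, a PAR bZIP transcription factor (chromosome 22, 41395746 to 41396342, fold 19.5, MA partner 3.78), LEPROT (chromosome 1, 65434869 to 65435116, fold 17.0) and SCAF8 (chromosome 6, 154832907 to 154833452, fold 15.7, broad MA partner). COQ5, a coenzyme Q methyltransferase (fold 15.0), MRTFA and MTAP (14.3 each), ZNF746 (14.2), KLF13 and GLTP (14 each) and TRIM8 (13.5) followed. LEPROT shares its first exons with the leptin receptor gene, so its reads are uncertain. Whole-number folds made up 29.2% of the NC and 20.5% of the MA members.

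Among NC members without a partner the highest folds were in ZNF213 (chromosome 16, 3140962 to 3141111, fold 15.0), the nucleoporin gene NUP98 (12.5), MBD3 of the NuRD complex (12) and C2orf68 (12). MME, the neprilysin gene, followed with a peak on chromosome 3 at 155089989 to 155090289 (fold 11) at 54.5 and 67.2 FPKM. The rest were CHST12 (11), THEM4, SDHC, TGFBR1 and BRI3 (10.0 each). The highest MA members without a partner included those of NOTCH1 (chromosome 9, 136495679 to 136495978, fold 18.0) at 5.31 and 5.49 FPKM, CT55 (15.0), CDKN2A (chromosome 9, 21968802 to 21968952, fold 12) at 5.68 and 6.10 FPKM, and SPECC1 (10.0). SAP30BP (9), TAF5L (7.86), EIF2AK2 (7.75), SPOUT1 (7.00) and GIT2 (7.00) were also among them. EIF2AK2, the kinase PKR, was at 5.48 FPKM in NC and 11.1 in MA, and its peak had a false discovery rate of 0.0550. On the log2(FPKM + 1) scale, none of the genes ranked here for an MA member without a partner differed by 2-fold between the inputs. EIF2AK2, at 0.90, came closest among them. The ranking required 5 FPKM in both inputs. Outside it, HMGCS1 and SLC30A1, higher in MA by 2-fold or more, and SPATS1 and MARVELD1, lower, also had such a member. MBD3, named for its NC member, was at 31.7 and 15.4 FPKM.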

How the data were processed

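The authors deposited a gene table of FPKM values from the input libraries and 1 annotated peak list per condition. Per the submitters' processing notes, Trimmomatic, HISAT2, HISAT, deepTools and ChIPseeker were used with build GRCh38.p13, and their versions and roles, the peak caller and the read counter were not given in the sources used here. Each list holds the authors' p-value and false discovery rate, their fold enrichment (a ratio of RIP over input, at least 1.5 in both lists), and the exonic length, per the file headers. Lists were joined to the gene table by symbol, which matched 5379 of 5420 NC and 4958 of 5000 MA genes. Rows that repeated a position were dropped (81 in NC and 33 in MA), and 13 NC and 10 MA positions named 2 genes, of which the first was kept. Positions are 1-based, with 1 added to each deposited start.

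Overlap was at least 1 bp on the same strand over the whole span, introns included, so a peak over more than 1 exon can have a partner without a common exonic base. Relative input depth came from the ratio of both FPKM values of a gene, which is a ratio of whole reads times a constant. Among 13055 genes with both values above 0, 73.7% resolved to whole reads with at most 3000 in NC, against 1.36% after the values were moved slightly. The MA reads were not limited. Totals are those that made the most genes' lengths (124, next best 28) equal to their length in RefSeq (assembly GRCh38.p14, used for nothing else), 37.0 in NC and 41.6 in MA in units of 1000000 reads. Counting intervals of a log2 ratio are exact 95% binomial intervals from the smallest read numbers that give the ratio, which may be below the true ones, and are given without a pseudocount. Since reads carry no molecular identifiers, all intervals cover counting error only. Overlap, interval and read recovery code was tested on simulated data. Python 3.11.15, pandas 2.3.3, NumPy 2.4.6, SciPy 1.17.1 and matplotlib 3.10.9 were used.

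Peaks named are the 10 of highest fold among shared, among NC only and among MA only members, where the gene reached 5 FPKM in both inputs, and the 3 on each side of the length limit. Named genes are the 5 with the most members in each list, the 5 largest gains and losses under the same limit, the 10 highest and lowest input differences among genes with a member in either list where an input reached 5 FPKM, every m6A writer, eraser and reader, and up to 4 genes with a member in each other list, by mean input, without chromosome Y. A few genes under these rules are not reported here. The members and lists were chosen with earlier results of these data known. Sequences under the peaks were not analysed here.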

Additional observations from a re-analysis of the deposited data

How the results depend on the processing

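No paired analysis was possible because each condition had 1 input and 1 RIP library. Planned motif counts were not run, since no genome was used. Shares of members with a partner are given for NC first and MA second. They were 46.3% and 52.1% when the overlap had to cover 50% of both peaks, 56.5% and 63.8% with narrow 3' UTR peaks as the only partners, and 57.8% and 69.0% with peaks within 1 exon in both lists. With a length limit of 300 bp they were 56.0% and 65.9%, with 1000 bp 74.0% and 81.0%, at a fold of 3 or more 74.4% and 81.5%, and where both inputs reached 5 FPKM 76.0% and 83.9%. With equal numbers of peaks they came to 72.2% and 73.2%, the smallest gap of these alternatives. With peaks of a gene and the same p-value joined, an alternative chosen after seeing the data, they were 72.3% and 79.3%. The share was higher in MA under every one of these alternatives, but the MA list was the shorter one, with 19929 peaks against 22067. With equal numbers of peaks the intervals overlapped, 71.1 to 73.2% in NC and 72.1 to 74.2% in MA. How far the length of the lists sets this order was not tested further.

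The number of members was 4474 and 3739 with a limit of 300 bp and 4933 and 3541 at a fold of 3 or more. It stayed within 1.5 times with 1000 bp, a false discovery rate at or under 0.001, all rows as deposited, and joined peaks. Genes with a member in both lists numbered 1677 with a limit of 300 bp, 1965 at a fold of 3 or more and 2271 where both inputs reached 5 FPKM, where NC only and MA only genes numbered 795 and 549.

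Median input differences of the genes with members are given for both lists, NC only and MA only. They were 0.063, 0.067 and 0.13 with a pseudocount of 5, 0.040, 0.064 and 0.091 where an input reached 5 FPKM, and -0.0081, -0.012 and 0.094 after rescaling to a median of 0. With a limit of 300 bp the medians were 0.088, 0.13 and 0.11, against 0.11 for all tested genes, so the MA only median was not the highest there. Counts at 2-fold depend on the pseudocount: with 5, 80, 25 and 21 genes were 2-fold higher, and with 0.1, 540, 228 and 232.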

Other observations

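Some genes with higher or equal input in MA had narrow 3' UTR peaks in NC and none in MA. They were chosen after their values were seen. TP53INP1, a p53 target, was at 7.61 FPKM in NC and 24.8 in MA, and it had 3 narrow peaks in NC (highest fold 3.61) and no 3' UTR peak in MA, where a peak of another kind overlapped 1 of the 3. GCLM, the modifier subunit of the enzyme that starts glutathione synthesis, was at 2.97 and 9.96 FPKM, with 1 narrow peak in NC (fold 5.00) and no peak of any kind in MA. LSS, lanosterol synthase, was at 24.2 and 23.4 FPKM with a narrow peak in NC (fold 2.15) and no peak in MA. The reverse was seen in NUDT21, of cleavage factor I, at 13.1 and 18.7 FPKM, with 1 narrow peak in MA (fold 1.94) and no peak in NC. VLDLR, a lipoprotein receptor gene, had a broad peak in NC and 3 narrow peaks in MA at 9.26 and 8.10 FPKM. Each of these is a difference between 2 peak lists with 1 library each, and no replicate shows whether it recurs.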
